A study of Mus musculus with 8 samples.

Results

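The metalloproteinases and their tissue inhibitors were examined in reperfused mouse heart, as the genes whose single symbol is a matrix metalloproteinase (Mmp), an ADAM (Adam), an ADAMTS (Adamts) or one of the inhibitors Timp1 to Timp4, leaving out Mmp8 and Mmp9. These were 76 of the 19938 genes measured: 20 Mmp, 34 Adam, 18 Adamts and 4 Timp genes. The 8 samples were myocardial tissue of male mice of strain CH3, as the labels spell it, aged 8 to 10 weeks and weighing 25 to 30 g. The labels number the samples within a group and do not say whether each is a single heart, which is how they are called here. All mice underwent 45 minutes of occlusion of a coronary artery (the LAD) and 2 hours of reperfusion, so uninjured hearts were not part of the comparison. The placebo group of 4 samples had received phosphate-buffered saline (PBS) 1 hour before the artery was tied, and the DJ-1 group of 4 samples had received recombinant DJ-1 protein at that time. DJ-1, the product of Park7, responds to oxidative stress. No source used here gives its dose or route. Whole pieces of tissue were measured, in which fewer cells of a type and less RNA per cell cannot be told apart.

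Matrix metalloproteinases are zinc-dependent enzymes that cut collagen and other matrix proteins, and most are made as inactive precursors. ADAM proteins sit in the cell membrane, where the active ones release growth factors, cytokines and receptors from the cell surface. ADAMTS proteins are secreted and cut proteoglycans, procollagens and other matrix proteins. The 4 TIMP proteins block the active site of these enzymes: all of them inhibit matrix metalloproteinases, and Timp3, which binds to the matrix, also inhibits several ADAM and ADAMTS enzymes. In the heart the balance between enzymes and inhibitors is best known for its part in matrix breakdown and scar formation after infarction.

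The promoter sequences of 2 sets of members are shown, those of Adamts9 and Timp2 and those of a run of neighbouring Mmp genes. The RefSeq promoter table (GRCm38.p6) held 52 start sites of 47 of the 76 members. It held none for Adamts6, a further member whose groups did not overlap. Each sequence below is read 5′ to 3′ on the gene's own strand and ends at the last base before the annotated start. Adamts9, the member with the largest difference between the groups, and Timp2, the inhibitor whose groups did not overlap, are shown over 250 bases, with matches to the GC box GGGCGG (either strand) in capitals. They lie at chr6:92943535-92943784 (minus strand) and chr11:118355412-118355661 (minus strand).
Adamts9: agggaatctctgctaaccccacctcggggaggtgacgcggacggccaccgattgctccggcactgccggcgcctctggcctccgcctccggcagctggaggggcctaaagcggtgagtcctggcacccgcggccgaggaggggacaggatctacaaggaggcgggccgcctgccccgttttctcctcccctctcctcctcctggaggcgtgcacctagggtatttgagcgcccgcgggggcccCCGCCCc
Timp2: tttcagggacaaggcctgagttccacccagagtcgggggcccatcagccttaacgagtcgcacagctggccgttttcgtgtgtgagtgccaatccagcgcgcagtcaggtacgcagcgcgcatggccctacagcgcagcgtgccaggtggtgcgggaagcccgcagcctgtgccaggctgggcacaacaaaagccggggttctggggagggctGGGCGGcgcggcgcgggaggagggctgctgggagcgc
The bases G and C made up 71.2% of the Adamts9 window and 68% of the Timp2 window, with 22 and 21 CG pairs. Each window held the GC box letters, which 32.7% of all 32851 promoter windows of this length also held. Neither window held the letters TGANTCA of an AP-1 site, the TGANTAA variant, an NF-kappaB motif or the TATA letters TATAAA (either strand).

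The other set belongs to 9 neighbouring Mmp genes on chromosome 9 (Mmp13, Mmp12, Mmp1b, Mmp3, Mmp1a, Mmp10, Mmp27, Mmp20 and Mmp7, with Mmp8 lying among them). They include genes of the collagenase group (Mmp1a, Mmp1b and Mmp13), the stromelysins (Mmp3 and Mmp10), matrilysin (Mmp7) and macrophage elastase (Mmp12). The last 100 bases before the start are shown for 5 of them, with the AP-1 letters TGANTCA and the TATA letters TATAAA in capitals. TGANTCA reads as the same pattern on both strands. The windows are chr9:7272414-7272513 for Mmp13, chr9:7445722-7445821 for Mmp3, chr9:7464041-7464140 for Mmp1a, chr9:7502242-7502341 for Mmp10 and chr9:7691990-7692089 for Mmp7, each on the plus strand.
Mmp13: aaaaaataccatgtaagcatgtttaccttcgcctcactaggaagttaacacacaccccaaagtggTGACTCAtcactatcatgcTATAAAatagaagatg
Mmp3: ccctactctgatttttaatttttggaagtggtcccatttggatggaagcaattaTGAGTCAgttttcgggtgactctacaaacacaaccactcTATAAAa
Mmp1a: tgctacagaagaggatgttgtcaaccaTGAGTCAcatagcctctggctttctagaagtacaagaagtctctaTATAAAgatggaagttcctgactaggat
Mmp10: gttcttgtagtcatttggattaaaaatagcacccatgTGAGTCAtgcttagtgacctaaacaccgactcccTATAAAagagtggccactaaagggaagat
Mmp7: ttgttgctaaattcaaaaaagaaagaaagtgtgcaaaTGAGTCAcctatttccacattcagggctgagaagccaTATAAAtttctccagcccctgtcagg
In each of these windows the AP-1 letters stood before the TATA letters, with 12 bases between them in Mmp13, 32 in Mmp3, 38 in Mmp1a, 27 in Mmp10 and 30 in Mmp7. Mmp1b (37 bases between) and Mmp20 (30 bases) had the same order. Mmp12 held the AP-1 letters at 1 of its start sites without the TATA letters, Mmp27 held neither, and a further start site of Mmp7 (chr9:7692241-7692340) held neither. In windows of 100 bases the AP-1 letters occurred in 2.73% of all 32851 promoters and both patterns together in 0.234% (77 promoters), of which 7 were those of the Mmp genes just named. A match describes letters and does not show that a factor binds there.

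The arrays gave log2 expression values from the authors' RMA processing (robust multi-array averaging), in which a difference of 1 is a factor of 2 between groups. The probe sets of different genes bind their targets unequally, so levels are compared between hearts and not between genes. As a guide to background, 1027 olfactory receptor genes, which heart hardly transcribes, had a 95th percentile of 4.74. Cardiac muscle markers were far above it, with Actc1 (cardiac actin) at 13.85 ± 0.03 and Tnni3 (cardiac troponin I) at 13.69 ± 0.07 in placebo hearts (SD, n = 4 each). Above the percentile lay 45 of the 76 members: 4 of 4 Timp, 14 of 20 Mmp, 12 of 34 Adam and 15 of 18 Adamts genes. Nearest to it were Adamts8 at 4.76 and Mmp21 at 4.80 above, and Adam1a at 4.64 and Mmp10 at 4.59 below. Array medians ran from 5.25 to 5.35, and on the first principal component of all genes DJ-1 replicates 3 and 4 (19.6 and 23.5) stood apart from the remaining arrays (-15.0 to 5.3).

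DJ-1 was compared with placebo to ask which transcripts differed when the protein had been given before ischaemia. At the adjusted p threshold of 0.05 in limma, 0 of 76 members passed, beside 0 of 19938 genes (0%). The same model without variance moderation also passed 0 genes, and the numbers of genes with an unadjusted p under 0.05 were 1194 and 1118. At an unadjusted p under 0.05 there were 6 members, 3 higher in DJ-1 hearts (Adamts9, Mmp19 and Adam3) and 3 lower (Adamts6, Adam10 and Timp2). This was 7.89% of the members beside 5.99% of all genes (3.63% higher and 2.36% lower), a share near the background. The levels of the groups did not overlap for 5 members, higher in DJ-1 hearts for Adamts9 and Adam3 and lower for Adamts6, Timp2 and Mmp23, which was 6.58% of the members beside 3.22% of all genes (1.54% higher and 1.68% lower). In 64 of the 76 members the group means lay less than 0.25 apart. The mean was higher in DJ-1 hearts for 48 members (63.2%) beside 52.5% of all genes, with a median difference of 0.05 beside 0.01 over all genes. This lean depended on the scaling. With each array centred on its median, 48 members (63.2%) had the higher mean beside 50.9% of all genes. The count was 39 members (51.3%) with quantile normalization beside 49% of all genes, and 40 (52.6%) with cyclic loess beside 50.5%. Without DJ-1 replicates 3 and 4 it was 34 members (44.7%) beside 50.1%.

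**Figure D1:**
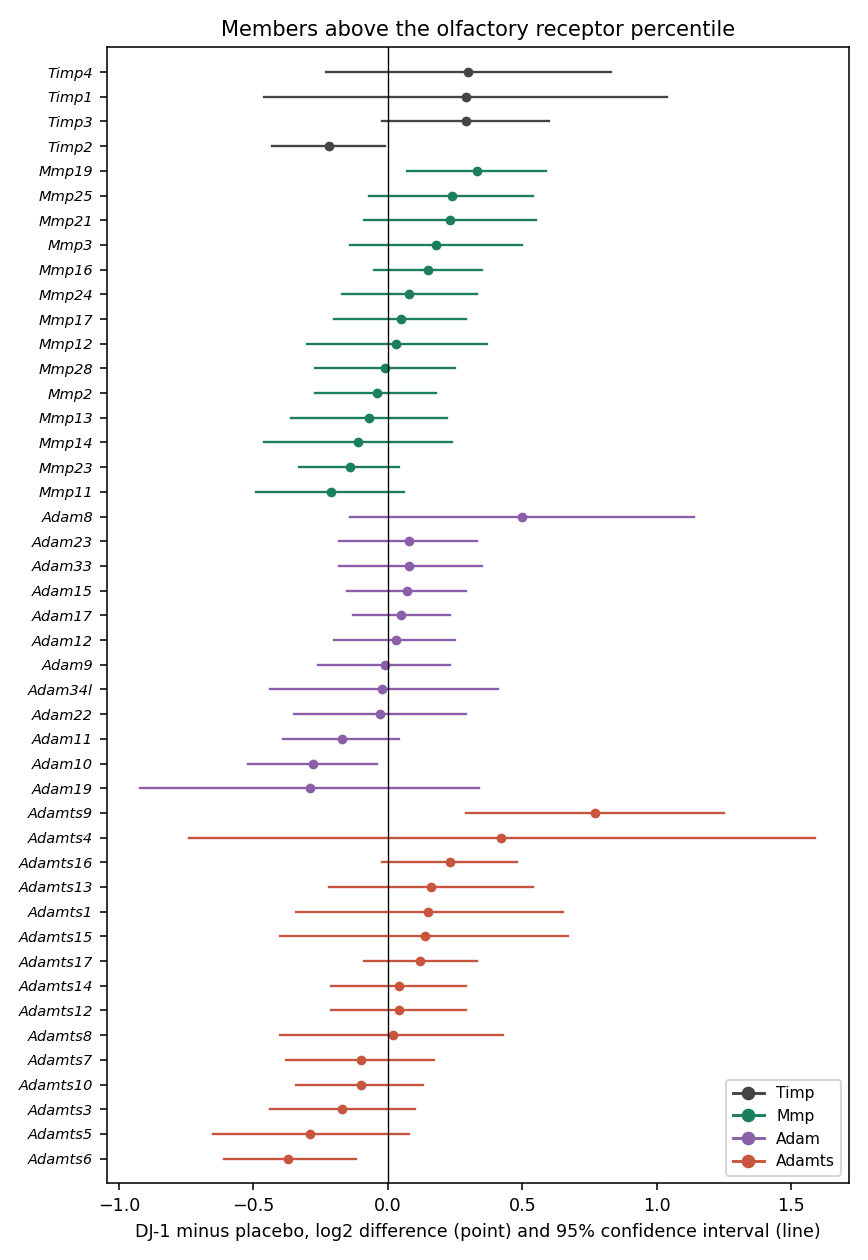
Difference between DJ-1 and placebo hearts (log2, horizontal axis) for the 45 members above the olfactory receptor percentile, as the limma estimate (point) with its 95% confidence interval (line), coloured by gene group. Adamts9 stands farthest to the right at 0.77 and Adamts6 farthest to the left at -0.37, and none passed an adjusted p of 0.05.

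Among the inhibitors, Timp2 was lower in every DJ-1 heart, while Timp1, Timp3 and Timp4 had higher means with overlapping groups. Timp2, which besides inhibiting matrix metalloproteinases helps membrane-bound Mmp14 to activate the Mmp2 precursor, stood at 9.19, 9.23, 8.98 and 9.0 in placebo hearts 1 to 4 and at 8.97, 8.79, 8.82 and 8.94 in DJ-1 hearts 1 to 4. The separation was narrow, with the highest DJ-1 heart (replicate 1) just below the lowest placebo heart (replicate 3). The difference was -0.22 (SE 0.10, 95% confidence interval -0.43 to -0.01), with an exact two-sided permutation p of 0.0286, the smallest that 4 against 4 arrays allow, and a limma adjusted p of 0.824. The groups overlapped after median centring of the arrays (-0.22) and after cyclic loess (-0.19).

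Timp3 stood at 10.86, 11.11, 10.89 and 10.56 in placebo hearts 1 to 4 and at 11.34, 10.83, 11.27 and 11.14 in DJ-1 hearts 1 to 4. DJ-1 replicates 1, 3 and 4 lay above all placebo hearts, and DJ-1 replicate 2 lay among the lower placebo hearts. The difference was 0.29 (SE 0.14, 95% confidence interval -0.02 to 0.60, limma adjusted p = 0.824), and it was 0.19 without placebo replicate 4. Timp4, the inhibitor best known for its expression in heart, ranged from 7.83 to 9.14 in placebo and from 8.69 to 9.16 in DJ-1 hearts. Its difference of 0.30 (SE 0.24) was 0.03 without placebo replicate 4, the heart at 7.83.

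Timp1, the inhibitor gene that inflammatory and growth factor signals induce, had the widest spread of the 4. It stood at 7.76, 7.27, 6.86 and 6.11 in placebo hearts 1 to 4 and at 7.61, 7.91, 6.52 and 7.13 in DJ-1 hearts 1 to 4. Both groups held hearts near the top and near the bottom of the range, and the difference of 0.29 (SE 0.34) was smaller than the SD within either group (0.69 in placebo and 0.60 in DJ-1 hearts). It was -0.0049 without placebo replicate 4 and 0.55 without DJ-1 replicate 3. In the RefSeq annotation Timp1, Timp3 and Timp4 each lie within the span of a synapsin gene (Syn1, Syn3 and Syn2), and Timp2 does not.

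**Figure D2:**
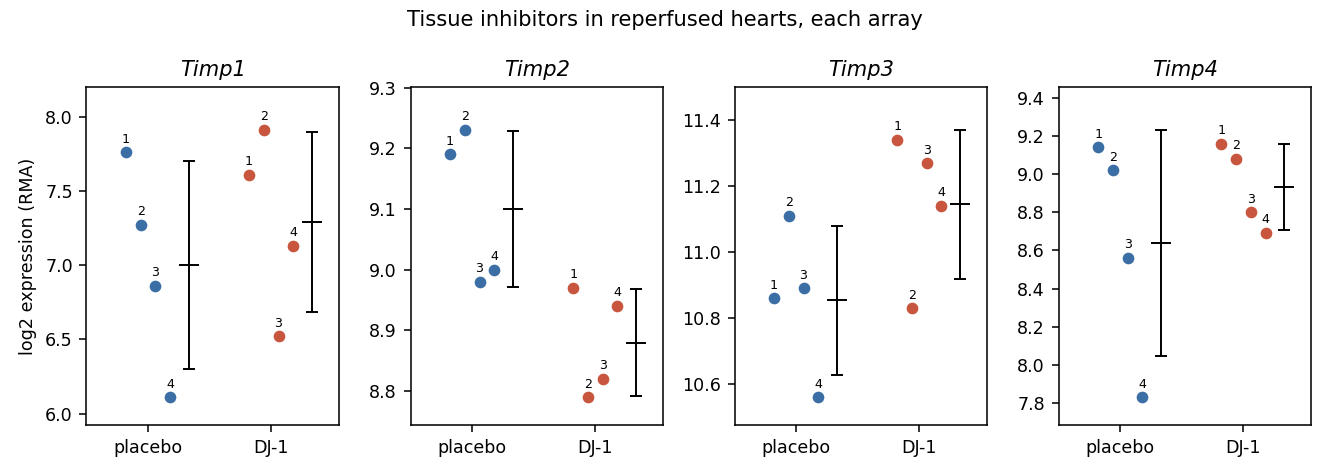
Log2 expression of the 4 tissue inhibitor genes (vertical axis, RMA values) in each heart, with placebo in blue, DJ-1 in red, replicate numbers beside the points, and the mean with SD (n = 4) as black bars. The Timp2 groups touch but do not overlap (lowest placebo 8.98, highest DJ-1 8.97), and placebo replicate 4 is the lowest heart for Timp1, Timp3 and Timp4.

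Among the 5 Mmp genes of highest mean, Mmp2, Mmp14, Mmp11 and Mmp13 had overlapping groups and 95% confidence intervals that held 0. Mmp2 (gelatinase A, made by fibroblasts and found inside cardiomyocytes) stood at 9.79, 10.01, 9.79 and 9.60 in placebo hearts and at 9.85, 9.71, 9.67 and 9.78 in DJ-1 hearts, each in replicate order. Every DJ-1 heart lay inside the placebo range. The difference was -0.04 with a 95% confidence interval of -0.27 to 0.18. Mmp14, the membrane-bound activator of Mmp2, ranged from 6.46 to 6.88 in placebo and from 6.16 to 6.85 in DJ-1 hearts, with a difference of -0.11 (95% confidence interval -0.46 to 0.24). It was 0.03 without DJ-1 replicate 3. Mmp11 (stromelysin 3) differed by -0.21 (SE 0.13), and Mmp13 by -0.07 (SE 0.13), both with overlapping groups. The difference of Mmp11 was -0.11 without placebo replicate 4, and that of Mmp13 ran from -0.21 (without DJ-1 replicate 2) to -0.01 (without DJ-1 replicate 3).

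Mmp19 was the Mmp gene of smallest p, and Mmp23 the one whose groups did not overlap. Mmp19, a basement membrane-degrading enzyme, stood at 5.19, 5.15, 4.91 and 4.87 in placebo hearts 1 to 4 and at 5.55, 5.48, 5.14 and 5.26 in DJ-1 hearts 1 to 4. DJ-1 replicate 3 lay between the placebo hearts and the others were above them, for a difference of 0.33 (SE 0.12, limma unadjusted p = 0.0185, adjusted p = 0.824). Mmp23, a membrane-anchored member without the usual hemopexin domain, was at 6.33, 6.18, 6.15 and 6.18 in placebo hearts and at 6.04, 6.06, 6.10 and 6.06 in DJ-1 hearts. All DJ-1 hearts were lower, but by little, with a difference of -0.14 (SE 0.08, 95% confidence interval -0.33 to 0.04). The limma unadjusted p was 0.114 and the adjusted p 0.824. The exact two-sided permutation p was 0.0286, as for any gene whose groups do not overlap.

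The 9 neighbouring Mmp genes whose promoters are shown above were near the background level, and 3 of them (Mmp13, Mmp12 and Mmp3) lay above the olfactory receptor percentile. Their differences ran from -0.07 to 0.20, and limma gave 0 of the 9 an unadjusted p under 0.05. The 20 Mmp genes as a group had a median difference of 0.04, with 11 higher and 9 lower, and the median turned to -0.02 with quantile normalization and -0.03 with cyclic loess. Of the 20, 1 had an unadjusted p under 0.05 (Mmp19).

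Among the ADAM genes, the principal sheddases were measured with a small spread. Adam17, which releases tumour necrosis factor and ligands of the epidermal growth factor receptor, ranged from 8.16 to 8.31 in placebo and from 8.25 to 8.31 in DJ-1 hearts. Its difference was 0.05 with a 95% confidence interval of -0.13 to 0.23. Adam10, which cuts Notch receptors, N-cadherin and other surface proteins, stood at 7.74, 8.09, 7.88 and 7.84 in placebo hearts 1 to 4 and at 7.78, 7.67, 7.43 and 7.56 in DJ-1 hearts 1 to 4. A single overlap remained, in that DJ-1 replicate 1 lay above placebo replicate 1, and the difference was -0.28 (SE 0.11, 95% confidence interval -0.52 to -0.04, limma unadjusted p = 0.0265, adjusted p = 0.824). Without DJ-1 replicates 3 and 4 it was -0.17. Adam9 and Adam15 differed by -0.01 and 0.07 with intervals of -0.26 to 0.23 and -0.15 to 0.29, and the sign of Adam9 turned with cyclic loess (0.01).

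Adam19, an ADAM with a part in heart valve and septum development, lay at 2 separate levels within both groups. It stood at 7.45, 6.43, 7.58 and 7.56 in placebo hearts 1 to 4 and at 6.54, 7.45, 7.38 and 6.49 in DJ-1 hearts 1 to 4. The hearts near 6.5 were placebo replicate 2 and DJ-1 replicates 1 and 4, and no heart lay between 6.54 and 7.38. The group difference of -0.29 (SE 0.29) was -0.56 without placebo replicate 2 and -0.13 without DJ-1 replicate 4. Adam11, a member without an active protease site that is best known from brain, differed by -0.17 (SE 0.10). Adam3, a gene of sperm cells, was at 3.79, 3.60, 3.81 and 3.83 in placebo and at 3.98, 4.39, 3.90 and 3.94 in DJ-1 hearts, below the olfactory receptor percentile. Its groups did not overlap (0.30, SE 0.12), but they did with quantile normalization (0.22) and cyclic loess (0.23), and the difference was 0.18 without DJ-1 replicate 2. The 34 Adam genes had a median difference of 0.03, with 21 higher (61.8%, beside 52.5% of all genes) and 13 lower. Of the 12 above the olfactory receptor percentile 6 were higher and 6 lower, with a median of 0.01. The median of the 34 turned to -0.004 with quantile normalization and -0.006 with cyclic loess.

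**Figure D3:**
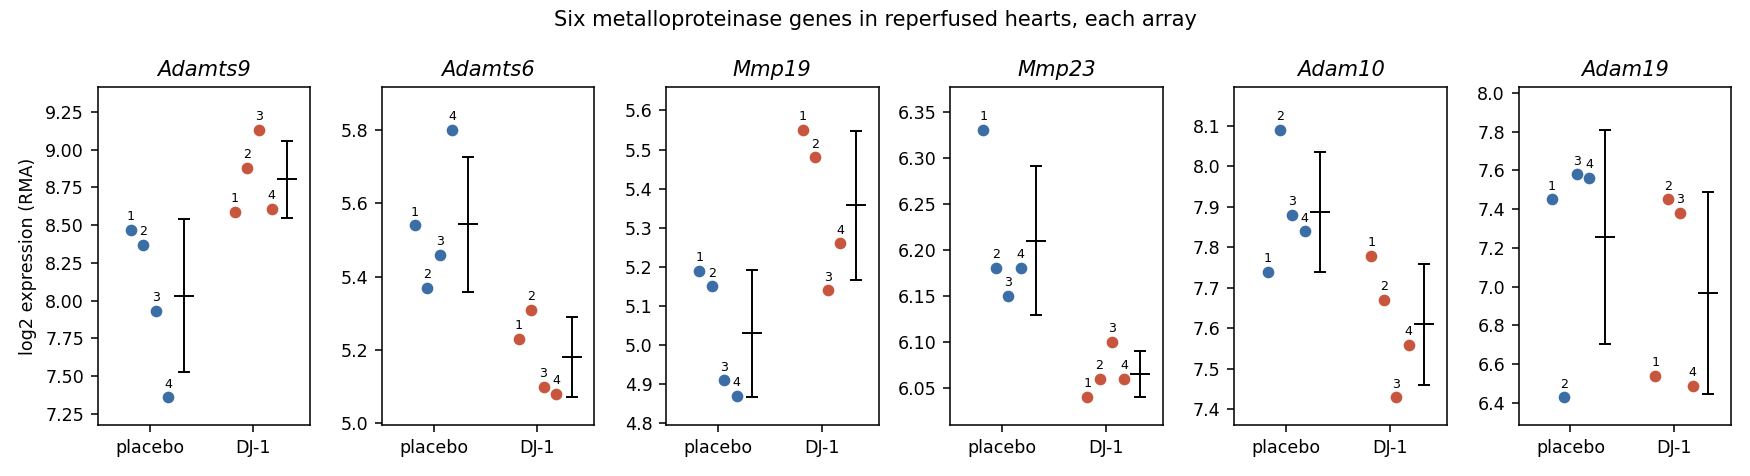
Log2 expression of 6 metalloproteinase genes (vertical axis, RMA values) in each heart, with placebo in blue, DJ-1 in red, replicate numbers beside the points, and the mean with SD (n = 4) as black bars. The groups of Adamts9, Adamts6 and Mmp23 do not overlap, those of Mmp19 and Adam10 overlap through single hearts, and Adam19 shows hearts at 6.43 to 6.54 and at 7.38 to 7.58 in both groups.

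The largest differences in either direction were those of secreted ADAMTS genes. Adamts9, an ADAMTS that cuts versican and aggrecan and is needed in heart development, stood at 8.47, 8.37, 7.93 and 7.36 in placebo hearts 1 to 4 and at 8.59, 8.88, 9.13 and 8.61 in DJ-1 hearts 1 to 4. Every DJ-1 heart lay above every placebo heart, with DJ-1 replicate 1 closest to the top of the placebo range. The difference was 0.77 (SE 0.22, 95% confidence interval 0.29 to 1.25), or 1.71-fold. The limma unadjusted p was 0.0047, the exact two-sided permutation p 0.0286, and the adjusted p over all genes 0.824, so it did not pass. Leaving out each array in turn moved the difference between 0.55 (without placebo replicate 4) and 0.92 (without placebo replicate 1), and it was 0.63 as the mean over the gene's probe sets, where the groups overlapped.

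Adamts9 was covered by 6 probe sets, whose differences all pointed the same way, from 0.53 to 0.77. The groups did not overlap in 4 of the 6. Placebo replicate 4 was the lowest of the 8 hearts in all 6 probe sets, and DJ-1 replicate 2 was the highest in 4. These probe sets read the same RNA extracts and are not replicates of the treatment. Adamts3, a procollagen N-proteinase, was covered by 16 probe sets, of which 14 were lower on average after DJ-1 (range of the 16 differences -0.38 to 0.20). Placebo replicate 4 was the highest heart in 13 of them. The Adamts3 probe set taken for the gene differed by -0.17 (SE 0.12), with 7.30 in placebo replicate 4 and 6.71 to 6.90 in the other hearts.

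**Figure D4:**
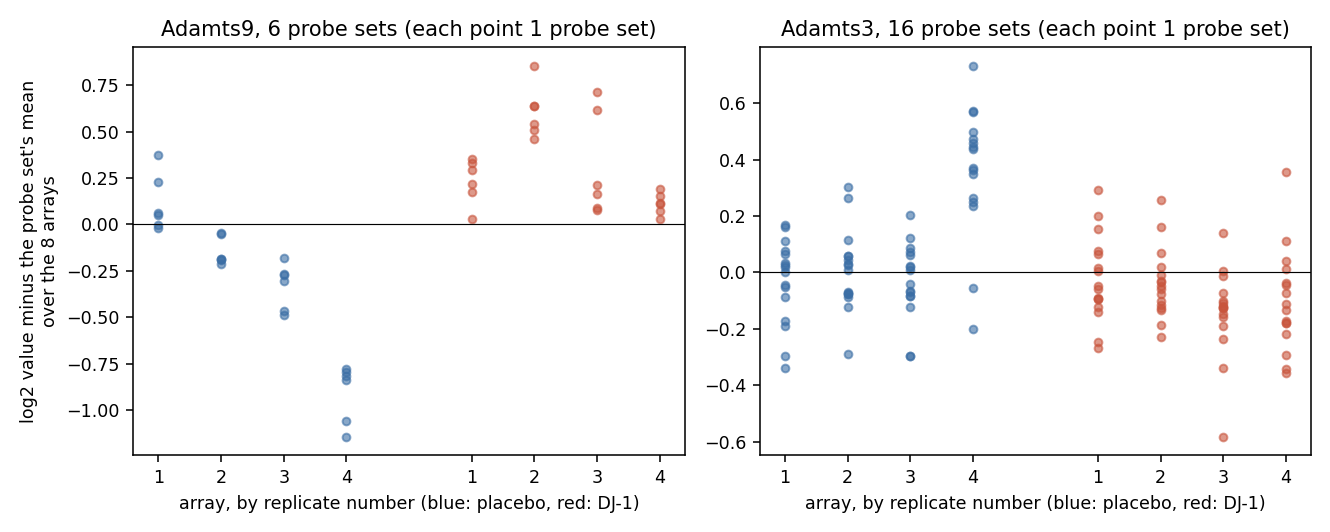
Values of each probe set of Adamts9 (6 probe sets, left) and Adamts3 (16 probe sets, right) in each array, as log2 value minus that probe set's mean over the 8 arrays (vertical axis), with placebo in blue and DJ-1 in red. Placebo replicate 4 is the lowest array for every Adamts9 probe set and the highest for 13 of the 16 Adamts3 probe sets.

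Adamts6, an ADAMTS known from heart development, was the counterpart on the lower side. It stood at 5.54, 5.37, 5.46 and 5.80 in placebo hearts 1 to 4 and at 5.23, 5.31, 5.10 and 5.08 in DJ-1 hearts 1 to 4. Every DJ-1 heart was below every placebo heart, and the difference was -0.37 (SE 0.11, 95% confidence interval -0.61 to -0.12). The limma unadjusted p was 0.00679 and the adjusted p 0.824. The difference was -0.28 without placebo replicate 4 and -0.42 without placebo replicate 2. Adamts5, an aggrecan- and versican-cutting enzyme, ranged from 6.81 to 7.74 in placebo and from 6.83 to 7.12 in DJ-1 hearts, with a difference of -0.29 (SE 0.17) that was -0.13 without placebo replicate 4.

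Adamts1, whose product cuts versican and curbs vessel growth, ranged from 8.24 to 8.90 in placebo and from 8.39 to 9.51 in DJ-1 hearts. Its difference of 0.15 (SE 0.23) was -0.09 without DJ-1 replicate 3, the heart at 9.51. Adamts17 differed by 0.12 (SE 0.10) and Adamts16 by 0.23 (SE 0.11), and the range of Adamts16 in placebo hearts, 4.64 to 4.90, reached below the olfactory receptor percentile. Leaving out DJ-1 replicate 4 gave 0.07 for Adamts17 and 0.15 for Adamts16. The 18 Adamts genes had a median difference of 0.10 with 13 higher and 5 lower. Of the 15 above the olfactory receptor percentile 10 were higher and 5 lower, with a median of 0.04. The median of the 18 was 0.04 with quantile normalization or cyclic loess, and -0.08 without DJ-1 replicates 3 and 4.

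Among the members above the olfactory receptor percentile, Adamts4, Timp1 and Adam8 had the widest spread between hearts of a group. The within-group SD was 1.02 for Adamts4 beside a group difference of 0.42, and 0.55 for Adam8 beside 0.50. Adamts4 (an aggrecanase that inflammatory signals induce) stood at 8.12, 8.04, 6.71 and 6.74 in placebo hearts 1 to 4 and at 7.79, 8.99, 6.16 and 8.36 in DJ-1 hearts 1 to 4. The lowest and the highest heart were both in the DJ-1 group, and the difference of 0.42 had an SE of 0.53. Leaving out DJ-1 replicate 2 gave 0.03, and leaving out DJ-1 replicate 3 gave 0.98. Adam8, an ADAM of granulocytes and macrophages, stood at 6.13, 6.28, 5.60 and 5.20 in placebo hearts and at 6.72, 6.91, 5.79 and 5.79 in DJ-1 hearts, with a difference of 0.50 (SE 0.29, limma adjusted p = 0.824). Within each group, replicates 1 and 2 were above replicates 3 and 4 for Adam8. Its difference became 0.30 when placebo replicate 4 was left out, and 1.01 when DJ-1 replicates 3 and 4 were.

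Neutrophil markers also varied widely between hearts, and the members matched them in some hearts and not in others. The mean of 17 neutrophil markers, each set relative to its own mean over the arrays, was -0.10, 0.54, -0.40 and -1.17 in placebo hearts 1 to 4 and 0.62, 0.82, -0.06 and -0.24 in DJ-1 hearts 1 to 4. Placebo replicate 4 was the lowest heart for the neutrophil list, Timp1, Timp4, Adam8 and Adamts9, at -1.04 for Timp1, -0.96 for Timp4, -0.85 for Adam8 and -1.06 for Adamts9 on the same relative scale. DJ-1 replicate 2 was the highest for the neutrophil list, Timp1, Adam8 and Adamts4. Elsewhere they parted: Adamts4 was at -1.45 in DJ-1 replicate 3 and 0.75 in DJ-1 replicate 4, where the neutrophil list was at -0.06 and -0.24. Timp1 was at 0.61 in placebo replicate 1 (neutrophil list -0.10), and Adamts9 had its maximum, 0.71, in DJ-1 replicate 3. Of the 17 markers 13 lay above the olfactory receptor percentile. On average 16 were higher after DJ-1 (94.1%, beside 52.5% of all genes). Of these, 3 had a limma unadjusted p under 0.05, beside 5.99% of all genes. The median difference was 0.64, or 0.14 without placebo replicate 4. These markers were read in the same 8 hearts and are not replicates of the treatment. The 3 markers of highest level were Lcn2, Retnlg and S100a9. For the lipocalin gene Lcn2, placebo hearts had a mean of 8.31 ± 0.98 and DJ-1 hearts of 9.38 ± 0.88 (SD, n = 4 each). The means were 7.23 ± 1.91 and 8.56 ± 1.16 for Retnlg, and 6.71 ± 1.21 and 7.49 ± 1.02 for S100a9. Of these 3, only Lcn2 had an unadjusted p under 0.05 in limma. The 21 acute response genes of the AP-1 and NF-kappaB pathways had a median difference of 0.38 (0.24 without placebo replicate 4). Of them 20 were higher (95.2%, beside 52.5% of all genes). Their relative means were -0.37 to 0.23 in placebo and -0.22 to 0.68 in DJ-1 hearts. Of these 21 genes 1 had an unadjusted p under 0.05, the AP-1 subunit gene Fosl2 (0.38, SE 0.16), followed by Socs3 (0.53, SE 0.30) and Osm (0.57, SE 0.32). The part of neutrophils or of the acute response in the values of the members was not tested.

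**Figure D5:**
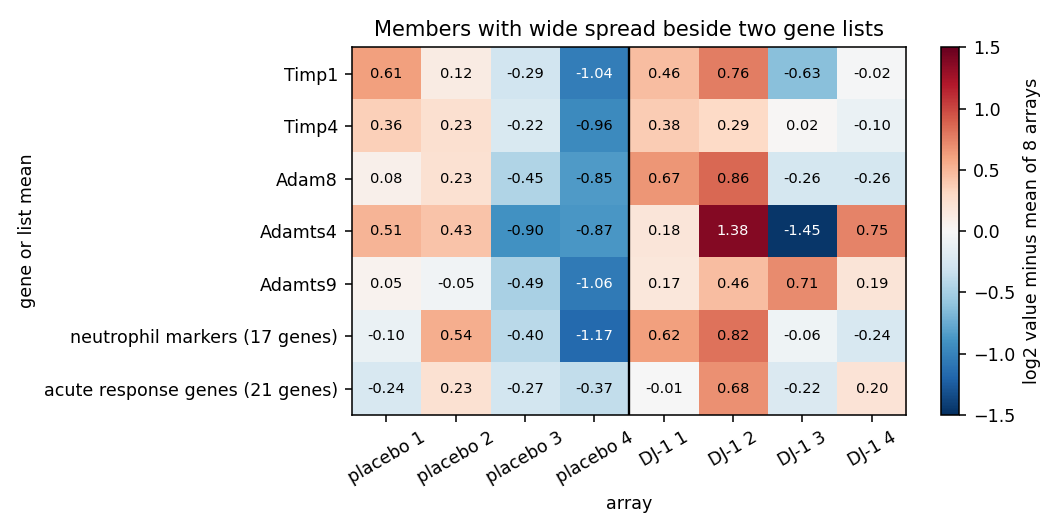
Heat map of 5 members and the means of 17 neutrophil markers and 21 acute response genes in each array (columns), as log2 value minus the mean of the 8 arrays, printed in each cell and coloured from blue (low) to red (high). Placebo replicate 4 has the lowest value for Timp1 (-1.04), Timp4 (-0.96), Adam8 (-0.85), Adamts9 (-1.06) and the neutrophil markers (-1.17), but not for Adamts4.

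Genes that act with the metalloproteinases were described from lists. By limma, 0 of the listed genes reached the adjusted threshold of 0.05, and the counts at an unadjusted p follow. Over all genes, 5.99% had an unadjusted p under 0.05 (3.63% higher and 2.36% lower) and 52.5% a higher mean. Among genes above the olfactory receptor percentile 45.4% had a higher mean. Of 23 measured activators, docking partners and other inhibitors, 14 had a higher mean (60.9%) and 9 a lower. At an unadjusted p under 0.05 there were 1 higher and 2 lower. The lower genes were Reck, a membrane-anchored inhibitor of several matrix metalloproteinases, with means of 6.97 ± 0.22 under placebo and 6.70 ± 0.10 under DJ-1, and Thbs2, a matricellular protein that helps to clear Mmp2, with 7.65 ± 0.15 and 7.20 ± 0.13 (SD, n = 4 each). The higher gene was Thbs1, the matricellular relative of Thbs2, at 9.78 ± 0.30 and 10.37 ± 0.32 (SD, n = 4 each). Of 16 genes that mature or guide ADAM proteins, 8 were higher and 8 lower, and 0 had an unadjusted p under 0.05. The smallest p values belonged to Rhbdf2, which carries Adam17 to the cell surface (0.23, SE 0.11), Tspan10 (0.24, SE 0.12) and Tspan5, a tetraspanin partner of Adam10 (-0.21, SE 0.12).

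Of 28 substrates shed by ADAM proteins, 15 were higher (53.6%, beside 52.5% of all genes) and 13 lower with a median difference of 0.01. An unadjusted p under 0.05 was reached by 0 of them, beside 5.99% of all genes. Notch3 differed by -0.20 (SE 0.10), Efnb2 by -0.27 (SE 0.13) and Btc by 0.18 (SE 0.09). Of 23 ADAMTS-like genes and ADAMTS substrates, 8 were higher (34.8%) and 15 lower with a median of -0.05. Beside them stand 52.5% of all genes, and 45.4% of those above the olfactory receptor percentile, with a higher mean. Of the 23, 1 had an unadjusted p under 0.05, beside 5.99% of all genes. This was Adamtsl3, an ADAMTS-like matrix protein without a protease domain (-0.27, SE 0.12), followed by Reln and Lrp1 (-0.18 and SE 0.09 for both). Lrp1 is the receptor that takes up several metalloproteinases and Timp3.

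The cells that make these proteins were followed through marker lists, beside the 52.5% of all genes with a higher mean in DJ-1 hearts. Among genes above the olfactory receptor percentile this share was 45.4%. All fibroblast markers and all smooth muscle and pericyte markers lay above that percentile. Of 14 fibroblast markers 11 were lower in DJ-1 hearts, with a median difference of -0.06. Their relative means were -0.05 to 0.13 in placebo and -0.11 to 0.03 in DJ-1 hearts. With quantile normalization or cyclic loess 9 fibroblast markers were lower (medians -0.05 and -0.03). Of 12 smooth muscle and pericyte markers 10 were lower (median -0.12), or 9 with quantile normalization or cyclic loess, and the list was mixed. The contractile genes Acta2 (0.21, SE 0.11) and Cnn1 (0.29, SE 0.21) were the 2 with a higher mean, and Tagln (-0.01, SE 0.12) and Des (-0.07, SE 0.10) lay near 0. The lower ones included Abcc9 (-0.17, SE 0.13) and a further contractile gene, Myh11 (-0.13, SE 0.09). Kcnj8 (-0.44, SE 0.13) and Pdgfrb (-0.30, SE 0.12) were lower with an unadjusted p under 0.05 in limma. These lists stand beside the lower values of Timp2, Adamts6 and Adam10, and their part in them was not tested. The median difference was -0.04 for 12 endothelial markers, 0.06 for 17 monocyte and macrophage markers (-0.05 without placebo replicate 4), -0.03 for 12 ventricular cardiomyocyte markers, -0.06 for 11 lymphocyte markers and 0.08 for 8 mast cell markers (-0.03 without DJ-1 replicates 3 and 4). Of the mast cell markers 3 lay above the olfactory receptor percentile.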

How the data were processed

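Total RNA of 8 hearts (RNA integrity number above 7, 100 ng each) was converted to biotin-labelled DNA for Affymetrix arrays, per the labels' protocols. The deposited values are log2 expression values that the authors made with RMA, per the submitters' processing notes; no source used here gives the RMA version or the genome build. The array's platform annotation gave 21789 of 35556 probe sets a single gene symbol, 1621 several and 12146 none, and 2 of those with several symbols hold a symbol of the families studied and were not used. Of the singly named, 21698 matched the RefSeq gene table by Entrez identifier, which changed 0 symbols. For each gene the probe set of highest mean was taken, which gave 19938 genes, and 73 of the 76 members had a single probe set.

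Groups were compared with limma 3.58.1 in R 4.3.3 (lmFit and eBayes, two-sided, no covariate, Benjamini-Hochberg over all genes), and the code was tested on simulated data. Single values were also given an exact permutation test over arrays. Lists are described by counts and medians and were not tested. The members and lists were chosen with earlier results of these data known. Named members were the 4 inhibitors; in each of the Mmp, Adam and Adamts families the 5 of highest mean and the 3 of smallest p; members above the background guide without overlap; and the 3 above it with the widest spread. From each related list the 3 genes of smallest p were eligible, and from each marker list the 3 of highest level. Adamts3, Kcnj8, Pdgfrb, Myh11, Cnn1, Tagln, the members nearest the background guide and the neighbouring Mmp genes fall outside this rule. They were chosen after their values were seen. The labels do not say how many mice a sample holds, so p-values measure only the spread between these samples, which may be technical. The number of arrays limits the precision. Sample codes in the labels run through the placebo and then the DJ-1 samples, so an order of processing and the treatment cannot be told apart. Promoters came from RefSeq (GRCm38.p6); TATA letters peaked before the start on the strand given (683 promoters with TATAAA and 242 with TTTATA between 40 and 11 bases before it). Alternatives covered scaling, filters on dim genes, probe set choice, variance moderation, array weights, a replicate block and leaving out arrays.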

Additional observations from a re-analysis of the deposited data

Results flagged for a closer look

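In 8 of 126 groups of 4 arrays that were checked (63 genes in both groups), a single heart lay apart from the others by more than 0.829 of the group's range, the 95% critical value of Dixon's test. Chance flags about 1 in 20 groups, so a number of this size is near what chance gives. Among Adam genes, Adam19 was at 6.43 in placebo replicate 2 beside 7.45 to 7.58 in the other placebo hearts. Adam3 was at 3.60 in placebo replicate 2 (others 3.79 to 3.83) and at 4.39 in DJ-1 replicate 2 (others 3.90 to 3.98). Adam15 was at 9.06 in DJ-1 replicate 1 (others 8.97 to 8.98). Among Mmp genes, Mmp13 was at 5.74 in DJ-1 replicate 2 (others 5.14 to 5.21) and Mmp23 at 6.33 in placebo replicate 1 (others 6.15 to 6.18). Adamts16 was at 4.64 in placebo replicate 4 (others 4.88 to 4.90), and the ADAM substrate gene Btc at 5.42 in placebo replicate 1 (others 5.19 to 5.22).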

How the results depend on the processing

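Over 20 alternatives, 0 members passed an adjusted p of 0.05 in limma, and the lowest adjusted p of a named member was 0.651. Of 494 recomputed differences of the 25 named members, 12 changed sign, in 7 members. Of all genes, 0 passed in 19 alternatives and 1 passed without DJ-1 replicate 3 (range 0 to 1 with an array left out). Members with an unadjusted p under 0.05 were 6, with 3 under cyclic loess (3.95% of 76, beside 5.34% of all genes) and 3 of the 25 tested among genes above the median level (beside 5.55% of all genes tested). Members without overlap were 5, with 3 of 25 above the median level (beside 3.24%), 11 (14.5%, beside 13.1%) without DJ-1 arrays 3 and 4 (an alternative chosen after seeing the data, in which fewer arrays make separation easier) and 5 to 9 with an array left out (6.58% to 11.8%, beside 5.07% to 7.54%). Members with a higher mean were 48 (63.2%, beside 52.5% of all genes). Above the olfactory receptor percentile they were 27 of 45 tested (60%, beside 45.4% of all genes tested). Above the median level they were 11 of 25 tested (44%, beside 38.8%). With an array left out they were 39 to 51 (51.3% to 67.1%, beside 51.2% to 53.7%). Sign changes were 0.01 for Adam9 under cyclic loess and under array weights, and, without DJ-1 arrays 3 and 4, 0.08 for Mmp13 and -0.19 for Adamts1. With an array left out, differences ran from -0.0049 to 0.55 for Timp1, -0.11 to 0.03 for Mmp2, -0.20 to 0.03 for Mmp14, -0.09 to 0.08 for Adam9, -0.0038 to 0.11 for Adam15 and -0.09 to 0.28 for Adamts1; the cause was not tested. Same-numbered arrays had correlations of their deviations of 0.005, 0.171, 0.177 and 0.008 for numbers 1 to 4. Pairs of unlike number ran from -0.285 to 0.287. These correlations cannot show whether same-numbered samples were handled together, and the main comparison used no pairing. With the replicate block, 5 members had an unadjusted p under 0.05 and 0 passed the adjusted threshold; of all genes 1302 had an unadjusted p under 0.05 beside 1194 without the block. No scaling moved the median of all genes by over 0.1.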
